A study of Mus musculus with 6 samples.

Results

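Serpins are a large family of proteins, most of which inhibit serine proteases. A protease cuts the exposed reactive centre loop of the serpin and is then held in a covalent complex. Clade B serpins, named Serpinb in the mouse, mostly lack a secretion signal and stay inside the cell, and several of them are typical of stratified epithelia such as skin and vagina. The 8 genes described here are 7 clade B serpins, Serpinb1a, Serpinb2, Serpinb5, Serpinb6a, Serpinb6b, Serpinb7 and Serpinb11, and 1 clade A serpin, Serpina1c. They were taken by name, as serpins of uterine epithelium, with earlier results of these data known, so their levels by cell type, cluster, library and section are given as a description. All 8 had a row among the 24077 genes of the cell table and among the 30828 genes of each section table. The other serpins with a row numbered 40 in the cell table and 53 in the section tables.

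The samples came from the uteri of CD-1 mice at 12 months of age. Control (CO) mice had received corn oil, and DES mice diethylstilbestrol, a synthetic oestrogen, at 1 mg/kg/day in corn oil, by subcutaneous injection on days 1 to 5 after birth. Single-cell RNA-seq gave 1 CO library of 32387 cells from 2 pooled mice and 1 DES library of 16312 cells from 4 pooled mice, with 353460067 and 288919190 unique molecular identifiers (UMIs, counts of captured RNA molecules). Spatial transcriptomics gave 4 sections, CO A, CO B, DES A and DES B, each from 1 mouse, with 1357 to 1834 spots and 9117099 to 12506177 UMIs. The study chose the mice for these sections after a pathologist had checked the DES tissue for uterine adenocarcinoma. It took CO mice in estrus, because adult DES mice stay in persistent estrus. In the sections, DES exposure and this choice of tissue cannot be told apart.

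Levels are given as CPM, the UMIs of a gene scaled to the same total in every group of cells or spots, so a level of 1 gene is compared between samples and not with that of another gene. Each interval is a 95% interval that covers counting error only. With 1 cell library per treatment, a difference between the cell libraries had no replicate check. The authors named a cell type for 12253 CO and 9701 DES cells, and the 20134 CO and 6611 DES cells without one were shallower, with medians of 4137.5 and 2178 UMIs. There were 2583 CO and 5255 DES epithelial cells. Basal cells, with Krt14 and Trp63 each at more than 1 UMI, were absent from the CO library and numbered 483 among the DES epithelial cells. The 2 libraries shared 180 cell barcodes. The study noted a tissue fold in CO B and limited cluster identification in DES B.

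Of the 8 genes, 4 lie on chromosome 1 (build GRCm38) within 674.306 kb that hold 10 protein-coding Serpinb genes. The other 6 all lie between Serpinb5 and Serpinb11 and are Serpinb12, Serpinb13, Serpinb3a, Serpinb3d, Serpinb3b and Serpinb3c. Serpinb5 lies on the plus strand at chr1:106861173-106883348, Serpinb11 at chr1:107361198-107380475, Serpinb7 at chr1:107399655-107452689 and Serpinb2 at chr1:107511423-107535478, all in the same orientation. Serpinb1a (chr13:32842092-32851185, minus strand), Serpinb6b (chr13:32965209-32979067, plus strand) and Serpinb6a (chr13:33917918-34002794, minus strand) lie within 1160.7 kb of chromosome 13. Serpina1c lies on chromosome 12 at chr12:103894926-103904887 on the minus strand, among close copies Serpina1a to Serpina1e. Reads of these copies, and of Serpinb1a and Serpinb6a or Serpinb6b with their own close relatives, may be split between copies by the counting, so their levels are less certain.

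The upstream sequences of the 4 genes on chromosome 1 are shown because Serpinb11, Serpinb7 and Serpinb2 had the highest DES to CO ratios among the 8 genes in whole sections and Serpinb5 was high in basal cells. Each is the 250 bases before a transcription start in RefSeq (build GRCm38.p6), on the plus strand, and capitals mark matches to the AP-1 motif (TGANTCA) or to the TATA motif (TATAAA, or TTTATA where it reads on the other strand). The RefSeq starts of Serpinb7 and Serpinb11 used here lie inside the gene spans given above.
Serpinb11, chr1:107362064-107362313: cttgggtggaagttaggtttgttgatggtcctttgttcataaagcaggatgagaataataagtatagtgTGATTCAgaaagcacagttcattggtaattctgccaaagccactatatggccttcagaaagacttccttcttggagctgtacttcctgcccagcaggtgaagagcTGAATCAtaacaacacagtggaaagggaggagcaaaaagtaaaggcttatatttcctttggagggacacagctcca
Serpinb7, chr1:107422439-107422688: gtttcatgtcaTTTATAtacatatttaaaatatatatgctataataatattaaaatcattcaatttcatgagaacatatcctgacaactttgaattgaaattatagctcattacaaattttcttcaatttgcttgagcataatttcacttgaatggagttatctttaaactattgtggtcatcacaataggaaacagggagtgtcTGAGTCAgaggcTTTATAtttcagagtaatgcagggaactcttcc
Serpinb2, chr1:107511173-107511422: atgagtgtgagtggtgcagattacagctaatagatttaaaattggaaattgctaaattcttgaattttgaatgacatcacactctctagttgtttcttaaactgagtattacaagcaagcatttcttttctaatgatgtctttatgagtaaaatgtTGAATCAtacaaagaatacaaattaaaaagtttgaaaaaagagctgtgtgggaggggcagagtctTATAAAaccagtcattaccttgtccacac
Serpinb5, chr1:106860925-106861174: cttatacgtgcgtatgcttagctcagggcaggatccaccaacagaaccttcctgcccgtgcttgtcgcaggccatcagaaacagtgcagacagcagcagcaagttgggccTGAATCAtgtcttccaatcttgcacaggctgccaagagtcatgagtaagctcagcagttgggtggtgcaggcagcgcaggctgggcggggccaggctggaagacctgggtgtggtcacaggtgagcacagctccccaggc
Both strands were searched. The AP-1 letters occurred in the windows of 5 of the 7 genes that had an entry, at 2 places in that of Serpinb11, against 2217 of all 32851 promoter windows (6.75%). The TATA letters occurred in 2 of the 7, Serpinb7 and Serpinb2, against 4063 of all windows (12.4%). The full oestrogen response element, GGTCA and TGACC with 3 bases of any kind between them, occurred in none of the 7 and in 21 of all windows (0.0639%). The matches do not overlap in the windows shown, and a match describes the letters only.

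The 8 genes fell into 3 patterns across the named cell types with at least 50 cells, of which there were 9 in the CO and 5 in the DES library. Serpinb5, Serpinb7, Serpinb11 and Serpina1c were highest in epithelial cells in both libraries. Against these 4 of 8, 1612 of 11925 genes (13.5%) in the CO library and 27.6% of 10824 genes in the DES library were highest in epithelial cells. Serpinb1a, Serpinb6a and Serpinb6b were highest in mesothelial cells in both libraries, as were 11.7% and 32.6% of all genes. Serpinb2 was highest in both libraries in the cells that the authors call lymphocytes. Basal cells, counted here within the DES epithelial cells, were at 24.9 CPM of Serpinb2, against 18.1 CPM in DES lymphocytes, with overlapping intervals. The name serpins of uterine epithelium therefore describes 4 of the 8 genes by their highest level among the named types.

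Serpinb7, also called megsin, was at 39.7 CPM in CO epithelial cells and at 196 CPM in DES epithelial cells. The next highest types were CO pericytes at 11.3 CPM and DES lymphocytes at 21.5 CPM. Serpinb11, also called epipin, was at 33.9 CPM in CO and 295 CPM in DES epithelial cells, with CO pericytes at 11.3 and DES lymphocytes at 34.2 CPM next. In both cases the interval of the epithelial level did not overlap that of the next type. After each cell was thinned to 3000 UMIs, Serpinb11 had a UMI in 9.56% of CO and 51.6% of DES epithelial cells, and in 35.3% and 88.8% without thinning. In cells called lymphocytes the thinned shares were 1.29% and 11.7%, at median depths of 4033 and 5599 UMIs per cell against 23458 and 21900 in epithelial cells. In mesothelial cells they were 0.700% and 3.44%. These shares are the background beside which the epithelial shares stand, and the part of free RNA in them was not tested.

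Serpina1c, a copy of the gene for alpha-1-antitrypsin, the inhibitor of neutrophil elastase, was at 154 CPM in CO and 351 CPM in DES epithelial cells. The next type in both libraries was lymphocytes, at 22.7 and 30.2 CPM. Serpinb5 encodes maspin, a serpin that does not inhibit proteases, and it was at 59.1 CPM in CO and 23.6 CPM in DES epithelial cells. No other type exceeded 7.30 CPM of Serpinb5 in the CO library or 2.01 CPM in the DES library. Of these 4 epithelial genes, Serpinb5 was the one whose epithelial level was lower in the DES library.

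Serpinb1a, an inhibitor of neutrophil elastase, cathepsin G and proteinase 3, was at 205 CPM in CO and 158 CPM in DES mesothelial cells. Epithelial cells came second, at 129.8 and 84.4 CPM. Serpinb6a, an inhibitor of cathepsin G, was at 413 and 462 CPM in mesothelial cells and at 55.3 and 50.4 CPM in epithelial cells. Its paralogue Serpinb6b was at 492 and 206 CPM in mesothelial cells and at 11.2 and 4.82 CPM in epithelial cells. Epithelial cells held the lowest level of Serpinb6a in both libraries and of Serpinb6b in the CO library. For Serpinb6a the intervals overlapped those of lymphocytes, at 58.3 CPM in the CO and 52.4 CPM in the DES library. The 22 CO cells called Stmn1-hi, too few to enter the order, were at 496 CPM of Serpinb6b. Over all genes, 14.6% and 15.9% were lowest in epithelial cells in the CO and DES libraries.

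Serpinb2 encodes plasminogen activator inhibitor 2, an inhibitor of urokinase. It was at 25.8 CPM in CO and 18.1 CPM in DES lymphocytes, from 58 and 27 UMIs, and at 0.457 and 3.36 CPM in epithelial cells. In mesothelial cells it was at 0.132 and 0.139 CPM. The basal cells among the DES epithelial cells were at 24.9 CPM (21.9 to 28.2), an interval that overlapped that of DES lymphocytes (11.9 to 26.4). Of all Serpinb2 UMIs, epithelial cells held 14.5% in the CO and 71.2% in the DES library, and lymphocytes 23.4% and 3.25%. The cells called lymphocytes also held markers of other blood cells. Sums over different genes do not show which blood cell type prevailed. In the CO library, 5 macrophage markers summed to 3431 CPM in them, 5 neutrophil markers to 2111 CPM and 4 lymphocyte markers to 839 CPM, and in the DES library the sums were 8886, 6591 and 661 CPM. Which of these cells carried Serpinb2 was not tested.

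**Figure D1:**
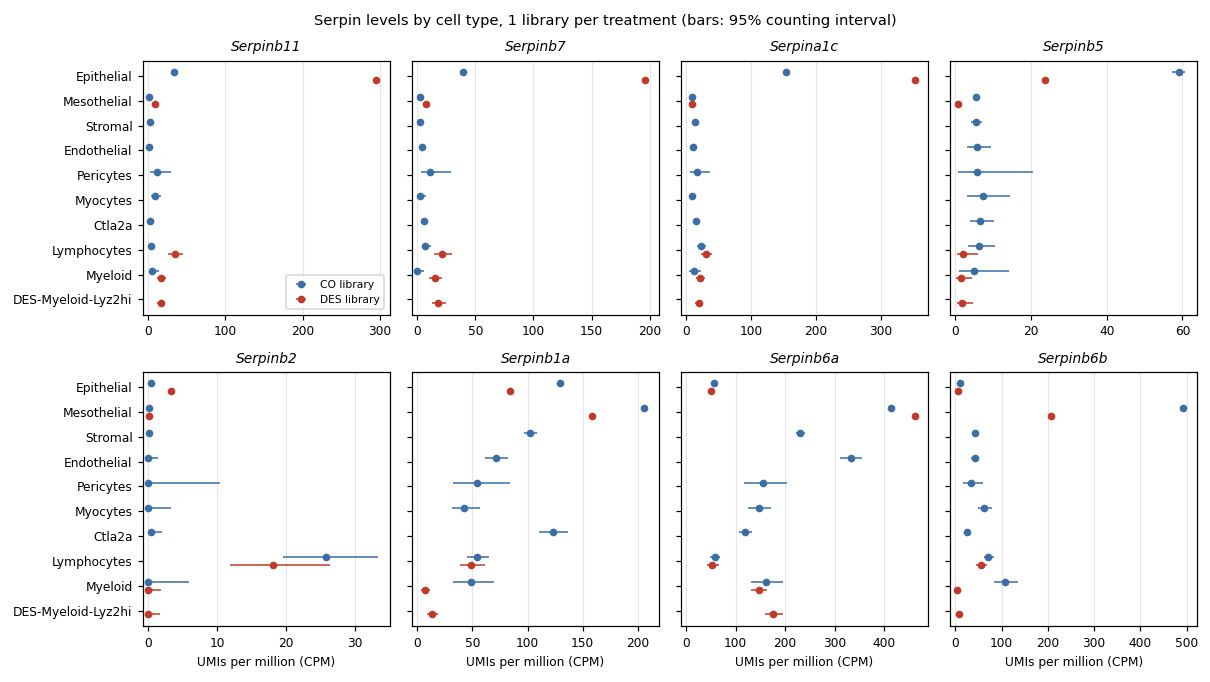
Levels of the 8 serpins (CPM, linear axis with its own range per gene) in each named cell type with at least 50 cells of the CO (blue) and DES (red) libraries, with 95% counting intervals as bars. Serpinb5, Serpinb7, Serpinb11 and Serpina1c peak in epithelial cells, while Serpinb1a, Serpinb6a and Serpinb6b peak in mesothelial cells, at 205, 413 and 492 CPM in the CO library.

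The libraries were compared in non-basal epithelial cells, with 2583 CO cells in 15 clusters and 4608 DES cells in 16 clusters, at median depths of 23458 and 24663.5 UMIs. Serpinb11 was at 33.9 CPM in CO and 301 CPM in DES cells, a ratio of 8.88 (interval 8.54 to 9.24). Serpinb7 was at 39.7 and 189 CPM, a ratio of 4.75 (4.58 to 4.93). Serpina1c was at 154 and 373 CPM, a ratio of 2.42 (2.37 to 2.47). These 3 genes were higher in the DES library by more than their counting error.

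Serpinb5 was lower, at 59.1 CPM in CO and 16.6 CPM in DES cells, a ratio of 0.281 (0.267 to 0.294). Serpinb6b was at 11.2 and 2.89 CPM, a ratio of 0.258 (0.230 to 0.289). Serpinb1a had a ratio of 0.663 (0.646 to 0.680) and Serpinb6a one of 0.692 (0.666 to 0.720). Of the 7 serpins at 10 CPM or more in either group, 3 had a ratio of at least 2 and 2 a ratio of at most 0.5. Of all 8414 genes at that level, 6.92% and 7.71% did so, and the members were chosen with these levels known. Serpinb2 stayed under 10 CPM, at 0.457 and 1.94 CPM, a ratio of 4.26 (3.01 to 6.19) that rose to 7.36 when basal cells were kept.

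The copies of Serpina1c were also higher in the DES library. Serpina1a was at 12.2 CPM in CO and 22.5 CPM in DES non-basal epithelial cells. Serpina1b was at 2.22 and 9.22 CPM. Serpina1d and Serpina1e stayed under 2 CPM in both. Among 40 other serpins, 8 reached 10 CPM, none had a ratio of at least 2, and 1 had a ratio of at most 0.5. That 1 was Serpinf1, the gene for pigment epithelium-derived factor, at 90.3 and 23.3 CPM.

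The proteases that serpins can meet were counted from lists of the protease and inhibitor families. Of 12 epithelial serine proteases at 10 CPM or more, 7 had a ratio of at most 0.5 and none one of at least 2, where 7.71% and 6.92% of all genes did. Of 7 gland cell markers, 6 also had a ratio of at most 0.5 and 1 one of at least 2, and Klk1, Prss29 and Spink1 are among these markers. The part of gland cells in these counts was not tested. Among the 7 proteases, Prss28 and Prss29, the implantation serine proteases of uterine glands, had no UMI in DES non-basal cells, and the kallikrein gene Klk1 had a ratio of 0.0321. Under 10 CPM, other kallikrein genes of the list were higher, with ratios of 35.8 for Klk10, 30.2 for Klk11 and 3.82 for Klk8. Tmprss11a, also under 10 CPM, had a ratio of 0.102 and Prss27 one of 0.961. Of 10 cathepsins, 4 were lower, Ctsl at 0.0937, Ctsc at 0.314, Ctsd at 0.417 and Ctsb at 0.466, and 1 was higher, Ctss at 2.80. Ctss is also expressed by myeloid cells, and in the same cells the macrophage marker Lyz2 had a ratio of 2.67 (4.89 and 13.02 CPM) and C1qa one of 3.71 (0.584 and 2.16 CPM). The other macrophage markers were Adgre1 at a ratio of 1.81, Cd68 at 1.29 and Csf1r, which was lower, at 0.616. The part of free RNA in the Ctss value was not tested. Of 5 genes of the plasminogen system, 1 was higher and 1 was lower. Plat, the gene for tissue plasminogen activator, was at 21.8 and 109 CPM. Plaur, the gene for the urokinase receptor, was at 25.5 and 0.994 CPM. Of 4 Kunitz and Kazal inhibitors, Spink1 was lower, at 217 CPM in CO and without a UMI in DES cells. None of the 11 leukocyte proteases of the list, 10 serine proteases and the carboxypeptidase Cpa3, reached 10 CPM.

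The epithelial clusters of the CO library divided the serpins by region. The study took 10 CO clusters as luminal and 4 as glandular. Serpinb7 was at 35.1 CPM in luminal and 1.15 CPM in gland clusters, a ratio of 30.6 (16.6 to 63.8). Serpinb11 was at 37.4 and 4.02 CPM, a ratio of 9.31 (6.67 to 13.4). Serpinb5 was at 66.4 and 7.35 CPM, a ratio of 9.03 (7.06 to 11.7). Serpinb1a was at 146 and 18.9 CPM, a ratio of 7.69 (6.60 to 9.03). These 4 of 8 compare with 12.1% of 8402 genes that were at least 2 times higher in luminal clusters. None of the 8 was at or below 0.5, where 11.1% of genes were. Not every luminal cluster was above the gland clusters. Luminal clusters 10 and 11 were at 3.62 and 2.39 CPM of Serpinb7, with intervals that overlapped gland cluster 8 at 1.98 CPM. Luminal cluster 11 was at 2.66 CPM of Serpinb11.

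Serpinb6a did not separate the 2 regions taken whole, at 55.9 CPM in luminal and 56.1 CPM in gland clusters. Its highest CO level was in gland cluster 13, at 113 CPM, without overlap, while gland clusters 3 and 8 were at 51.8 and 40.5 CPM. Serpinb6b had a ratio of 1.58 (1.22 to 2.10). Serpina1c was somewhat lower in luminal clusters, at 151.5 against 202 CPM, a ratio of 0.749 (0.712 to 0.788). Neither region was uniform for Serpina1c. Gland cluster 13 was at 11.2 CPM and gland clusters 3, 8 and 14 at 236, 176 and 266 CPM. Luminal clusters ran from 6.91 CPM in cluster 11 to 415 CPM in cluster 2. Serpinb2 had no UMI in gland clusters and was at 0.527 CPM in luminal ones.

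Serpinb7 varied widely among CO clusters. Cluster 12, of 71 cells, was at 408 CPM (379 to 439) and cluster 2 came next at 68.0 CPM. After thinning, 60.6% of the cells of cluster 12 had a Serpinb7 UMI. The same cluster held the highest CO level of Serpinb6b, at 44.1 CPM, and the lowest of Serpinb6a, at 27.2 CPM. CO cluster 2 held the highest levels of Serpinb11 (65.7 CPM) and Serpina1c (415 CPM), and for Serpinb11 its interval overlapped that of cluster 7 (61.7 CPM). Gland cluster 14, of 28 cells, was second for Serpina1c at 266 CPM and had the lowest Serpinb11 level, at 1.10 CPM. The former overlapped gland cluster 3 at 236 CPM. The latter rests on 1 UMI and overlapped gland clusters 3 and 8, at 2.25 and 1.98 CPM. Serpinb1a was highest in cluster 10 at 183 CPM and Serpinb5 in cluster 1 at 88.7 CPM, both overlapping the interval of the next cluster.

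All 16 DES clusters held Serpinb7 and Serpinb11, but at levels that spread widely. Serpinb7 ran from 31.3 CPM in cluster 1 to 619 CPM in cluster 14 and 483 CPM in cluster 12, with a median of 104 CPM over clusters. Serpinb11 ran from 56.3 CPM in cluster 11 to 642 CPM in cluster 14, with a median of 293 CPM. In the CO library the medians over clusters were 30.7 and 25.6 CPM. The lowest Serpinb7 level among DES clusters was thus close to the CO median, and the lowest Serpinb11 level among them was below the highest CO cluster.

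Serpina1c ran from 60.2 CPM in DES cluster 11 to 841 CPM in cluster 0. Cluster 14, where Serpinb7 and Serpinb11 were highest, was at 164 CPM of Serpina1c, below the median of 258 CPM. Cluster 14 also held the lowest DES level of Serpinb5, at 7.01 CPM from 17 UMIs (interval 4.09 to 11.2). The highest was 32.0 CPM in cluster 13, which overlapped cluster 15 at 28.0 CPM. Serpinb1a ranged from 54.8 to 123 CPM. Serpinb6b was at 13.8 CPM in cluster 15 and at 5.93 CPM or less in the others.

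**Figure D2:**
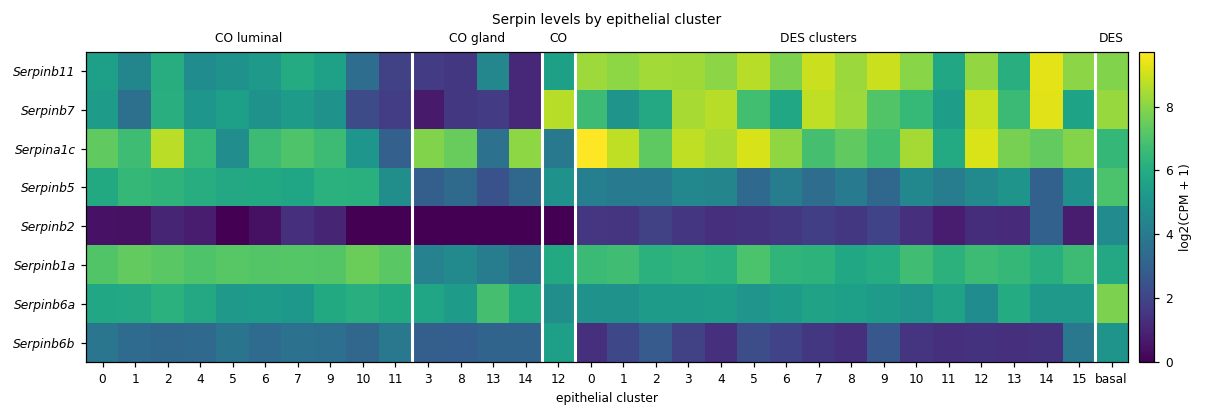
Levels of the 8 serpins, as colour on the log2(CPM + 1) scale, in the 15 CO and 16 DES clusters of non-basal epithelial cells and in DES basal cells. Serpinb7 stands out in CO cluster 12 at 408 CPM, and in the DES clusters Serpinb7 runs from 31.3 to 619 CPM and Serpinb11 from 56.3 to 642 CPM, both highest in cluster 14.

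Over clusters, levels on the log2(CPM + 1) scale of Serpinb7 and Serpinb11 had a Pearson correlation of 0.848 over the 15 CO and of 0.484 over the 16 DES clusters. Those of Serpinb1a and Serpinb5 correlated at 0.945 and 0.292. Clusters of 1 library share their mice, library and clustering, so these values are descriptions. The genes most like each serpin were sought over 32 groups, the 31 clusters and the DES basal cells, among 8417 genes. Groups of both libraries were pooled, so a difference between the libraries enters these correlations. Serpina1c was nearest to Serpina1a (r = 0.965), its close copy. Serpinb7 was nearest to Ptn (0.913), the gene for the growth factor pleiotrophin. Serpinb11 was nearest to Il18r1 (0.910) and Plb1 (0.909), the genes for an interleukin 18 receptor chain and a phospholipase. Serpinb2 was nearest to the basal keratin genes Krt14 (0.901) and Krt15 (0.883). Its level was at most 7.01 CPM in a cluster and 24.9 CPM in basal cells, so these values rest largely on that group. Serpinb1a was nearest to the aminopeptidase gene Rnpep (0.973), Serpinb5 to the acid ceramidase gene Asah1 (0.908), Serpinb6a to the caveolin gene Cav2 (0.809) and Serpinb6b to Pgs1 (0.877).

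In the DES library, 5 of the 8 serpins were higher in basal cells than in the other epithelial cells, 4 of them at a ratio of at least 2. Serpinb2 was at 24.9 CPM in basal and 1.95 CPM in other epithelial cells, a ratio of 12.8 (10.8 to 15.1). Serpinb6b was at 31.7 and 2.88 CPM, with an interval of the ratio of 9.49 to 12.7. Serpinb5 was at 125 and 16.5 CPM, a ratio of 7.57 (7.07 to 8.10). Serpinb6a was at 222 and 38.2 CPM, a ratio of 5.82 (5.54 to 6.11). The 4 of 8 compare with 9.82% of 8706 genes at a ratio of at least 2. The share of all genes higher in basal cells at any ratio was not computed, so the count of 5 is a description.

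Serpinb7 was at 297 CPM in basal cells, a ratio of 1.57 (1.52 to 1.64) to other epithelial cells. Serpinb11 had a ratio of 0.779 and Serpinb1a one of 0.673. Serpina1c was at 87.9 against 372 CPM, a ratio of 0.236 (0.221 to 0.252), and 7.62% of genes were at or below 0.5. When the authors' integrated clusters 8 and 11 stood for basal cells, 608 in all, Serpinb5 was at 132 CPM, Serpinb2 at 25.3 CPM and Serpina1c at 30.2 CPM. The 2 clusters differed in Serpinb7, at 404 CPM in cluster 8 and 168 CPM in cluster 11. Basal cells had a median of 16093 UMIs.

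Section values are given in the order CO A, CO B, DES A and DES B. In whole sections, Serpinb11 was at 23.3, 12.4, 475 and 455.5 CPM. Serpinb7 was at 32.8, 7.07, 431 and 441 CPM. For both genes the DES sections lay close together and at least 13.2 times above the higher CO section. Their pooled DES to CO ratios were 25.6 (23.2 to 28.2) and 21.1 (19.2 to 23.1). In a whole section, a larger share of cells of a type and more RNA per cell cannot be told apart.

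Serpinb2 was not detected in CO A, whereas CO B had 3 UMIs (0.272 CPM), DES A 222 UMIs (24.3 CPM) and DES B 103 UMIs (10.4 CPM). The pooled ratio was 134, with a counting interval of 45.5 to 654. Serpinb5 was at 31.4, 7.52, 73.0 and 55.5 CPM. Both genes were higher in each DES section than in either CO section.

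The other 4 genes overlapped between treatments. Serpinb1a was at 86.4, 25.2, 77.1 and 77.5 CPM. Serpinb6a was at 104, 141, 140.4 and 137 CPM. Serpinb6b was between 4.40 and 9.82 CPM in all 4 sections. Serpina1c was at 134, 792, 252 and 553 CPM, so that the sections of each treatment differed more than the treatments. The 4 of 8 genes whose DES sections lay above both CO sections compare with 43.8% of 14098 genes, and none lay below both (17.9% of genes).

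The fitted change (edgeR, DES against CO, log2 scale) was 4.49 ± 0.38 (SE, n = 2 sections per treatment) for Serpinb11, 4.23 ± 0.78 for Serpinb7 and 6.74 ± 0.93 for Serpinb2, a value that depends on the prior count because the CO sections held 3 UMIs. It was 1.49 ± 0.67 for Serpinb5, 0.25 ± 0.58 for Serpinb1a, 0.30 ± 0.38 for Serpinb6b, -0.03 ± 0.19 for Serpinb6a and -0.38 ± 0.86 for Serpina1c. Serpinb2 and Serpinb11, 2 of the 8, passed an adjusted p of 0.05 as higher, as did 2.67% of all genes, and none passed as lower (2.63%). The number that passed was 5 without CO A, 3 without CO B and 0 without DES A or DES B. Serpinb7 did not pass here but did in 5 of 8 alternatives. With a section left out, the change of Serpinb7 ranged from 3.50 (without CO B) to 5.76 (without CO A), that of Serpinb2 from 5.74 (without CO A) to 10.41 (without CO B) and that of Serpinb5 from 0.79 (without CO B) to 2.90 (without CO A). Serpinb1a ranged from -0.39 (without CO B) to 1.43 and Serpina1c from -1.15 to 1.37 (without CO B), so that each changed direction. The members were chosen with these levels known, so the counts are a description.

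Epithelium-rich spots were the 20% of spots in each section with the largest share of 6 epithelial markers, 271 to 367 spots per section. Serpinb11 was at 43.4, 27.1, 633 and 641 CPM there. Serpinb7 was at 60.9, 13.8, 568 and 578 CPM. Serpinb2 had no UMI in the epithelium-rich spots of either CO section and was at 19.8 and 20.1 CPM in DES A and DES B, at least 51.8-fold higher when 3 counts over both CO sections are taken as the limit.

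Serpinb5 was at 51.8, 14.6, 72.5 and 57.2 CPM. Serpinb6a was at 49.2, 68.8, 120.4 and 127 CPM. Serpinb6b was at 2.16, 4.97, 7.91 and 11.6 CPM. For these 3 genes too, both DES sections lay above both CO sections, which makes 6 of 8, against 47.6% of 11720 genes. Serpinb1a, at 128, 32.9, 93.2 and 92.1 CPM, and Serpina1c, at 260, 1602, 398 and 824 CPM, overlapped. None of the 8 lay below both CO sections, where 1582 genes (13.5%) did. Far more genes thus lay above than below in CPM, which is not corrected for the make-up of the RNA in a section. The DES to CO ratio of mean CPM was 2.10 for Serpinb6a and 1.15 for Serpinb1a. The edgeR fits, which rescale the sections, gave log2 changes of 0.76 ± 0.22 and -0.14 ± 0.61.

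Of the 8, 3 passed the test as higher, Serpinb11 (3.85 ± 0.31), Serpinb7 (3.60 ± 0.69) and Serpinb2, against 4.35% of genes, and none as lower (2.48%). With a section left out, the change of Serpinb7 ranged from 2.90 (without CO B) to 5.08 (without CO A), and 7 passed without CO A, 5 without CO B, 2 without DES A and 0 without DES B. As in whole sections, the members were chosen with these levels known, so the counts are a description. In these spots Serpinb5, Serpinb6a and Serpinb6b were higher in both DES sections, while in non-basal epithelial cells their DES to CO ratios were 0.281, 0.692 and 0.258. None of the 3 passed the test in these spots, and the fitted log2 change of Serpinb5 goes from 0.62 to -0.01 without CO B. Serpina1c had a pooled ratio of 0.689 in these spots and of 2.42 in the cells, but the former rests on CO B, without which the fitted log2 change goes from -0.89 to 0.91. In the epithelium-rich spots, basal cell markers summed to 5.996 (CO A), 262 (CO B), 9592 (DES A) and 7182 CPM (DES B), and in the same order squamous markers to 275, 217, 2622 and 2599.7 CPM and macrophage markers to 156, 252, 1606 and 794 CPM. Mesothelial markers summed to 9.59, 14.6, 33.0 and 41.1 CPM and muscle markers to 349, 264, 639 and 923 CPM. Neutrophil markers summed to 9.83, 7.74, 366 and 39.3 CPM. Of 5 basal markers 1 passed as higher, of 6 squamous markers tested 3 did, and of 5 macrophage markers 3 did. Of 3 neutrophil markers tested 1 did, of 2 mesothelial markers tested 1 did, and of 5 muscle markers 1 did. DES basal cells, which the non-basal comparison leaves out, were at 125 CPM of Serpinb5, 222 CPM of Serpinb6a and 31.7 CPM of Serpinb6b. Serpinb6a was at 147 and 176 CPM in the DES myeloid types and at 462 CPM in DES mesothelial cells, against 38.3 CPM in non-basal DES epithelial cells. Serpinb6b was at 206 CPM in DES mesothelial cells, against 2.89 CPM. The part of these cells in the serpin levels of the sections was not tested.

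**Figure D3:**
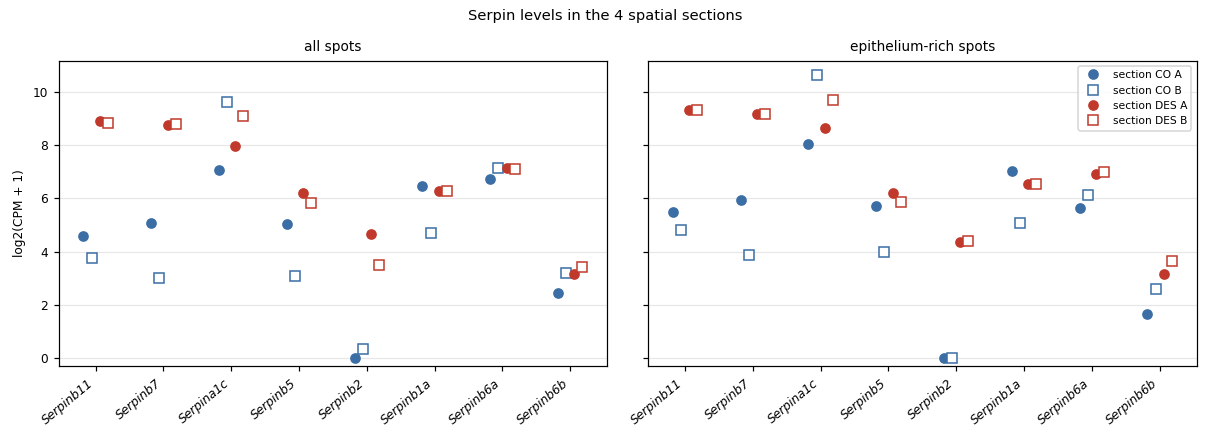
Levels of the 8 serpins, as log2(CPM + 1), in the CO (blue) and DES (red) sections, each point 1 section, for all spots and for epithelium-rich spots. Serpinb7 and Serpinb11 are between 431 and 641 CPM in both DES sections and at most 60.9 CPM in the CO sections, whereas Serpina1c overlaps between treatments and is highest in CO B at 1602 CPM.

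Which serpins mark the epithelial part of a section was tested by comparing epithelium-rich with other spots of the same section. The spots were chosen by epithelial markers in the same counts, so p-values of genes that go with these markers are too small. In the CO sections, Serpinb11 was at 13.2 and 5.26 CPM in other spots, and its log2 enrichment was 2.03 ± 0.18 (SE; adjusted p = 6.05e-06, edgeR). Serpina1c was enriched by 2.01 ± 0.13 (adjusted p = 5.56e-07). The enrichment of Serpinb7 was 1.81 ± 0.17 (adjusted p = 6.31e-06), that of Serpinb5 1.52 ± 0.18 (adjusted p = 4.17e-05) and that of Serpinb1a 0.89 ± 0.14 (adjusted p = 0.000359). These are 5 of 8, where 26.2% of 13673 genes passed. The genes were taken as epithelial serpins with results of these sections known, so the count is a description that supports nothing about them as a group.

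Serpinb6a was lower in the epithelium-rich spots of the CO sections, by -1.33 ± 0.13 (adjusted p = 8.01e-06). Serpinb6b was also lower, at -1.06 ± 0.32 (adjusted p = 0.0160), a call lost without CO A (adjusted p = 0.0557), without CO B (0.0501), in DESeq2 (0.125) and with the top 10% (0.0613) or 30% (0.137) of spots as epithelium-rich. Among all genes 23.9% were lower. Serpinb2, with its 3 UMIs, could not be placed (adjusted p = 0.385).

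In the DES sections the enrichment was smaller. Serpina1c was enriched by 0.81 ± 0.13 (adjusted p = 0.00283), Serpinb11 by 0.56 ± 0.13 (adjusted p = 0.0279) and Serpinb7 by 0.47 ± 0.12 (adjusted p = 0.0349). These 3 of 8 compare with 1.34% of genes that were higher, and none was lower (5.63%), but none of the 3 passed without DES A (adjusted p = 0.151, 0.240 and 0.531) and only Serpina1c passed without DES B. Serpinb7 and Serpinb11 also did not pass with the top 10% of spots as epithelium-rich (adjusted p = 0.132 and 0.159), nor did Serpinb7 in DESeq2 (0.0700). The other 5 did not pass, with Serpinb1a at 0.28 ± 0.14, Serpinb2 at 0.35 ± 0.37, Serpinb6b at 0.11 ± 0.29, Serpinb5 at -0.05 ± 0.15 and Serpinb6a at -0.28 ± 0.12. Serpinb11 in the other spots of DES A and DES B was at 422 and 401 CPM, and Serpinb7 at 386 and 402 CPM, above the epithelium-rich spots of either CO section.

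The difference between treatments in this enrichment was tested in the same fit. It was -1.57 ± 0.23 on the log2 scale for Serpinb5 (adjusted p = 0.00201), -1.47 ± 0.23 for Serpinb11 (adjusted p = 0.00243), -1.34 ± 0.20 for Serpinb7 (adjusted p = 0.00213) and -1.19 ± 0.18 for Serpina1c (adjusted p = 0.00219). It was 1.06 ± 0.18 for Serpinb6a (adjusted p = 0.00356), whose deficit in epithelium-rich spots was smaller in the DES sections. The 4 lower and 1 higher compare with 6.71% and 7.11% of genes, and the 5 passed in each of 9 alternatives. Serpinb1a (-0.60 ± 0.20, adjusted p = 0.0657), Serpinb6b (1.17 ± 0.43, adjusted p = 0.0970) and Serpinb2 (3.62, adjusted p = 0.462) did not pass. The genes were taken with results of these sections known, so these counts are a description too.

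The 6 epithelial markers that chose the spots had a lower enrichment as well, with a median difference of -0.86, from a median enrichment of 1.74 in the CO to 0.83 in the DES sections. Outside the epithelium-rich spots they summed to 2299.5 and 1150.4 CPM in CO A and CO B and to 2898 and 3249 CPM in DES A and DES B. Inside they summed to 6146, 4121, 5539 and 5972 CPM. Muscle markers in whole sections summed to 13345 and 14168 CPM in the CO and to 3077 and 3458 CPM in the DES sections. The part of these shifts in the serpin differences was not tested.

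**Figure D4:**
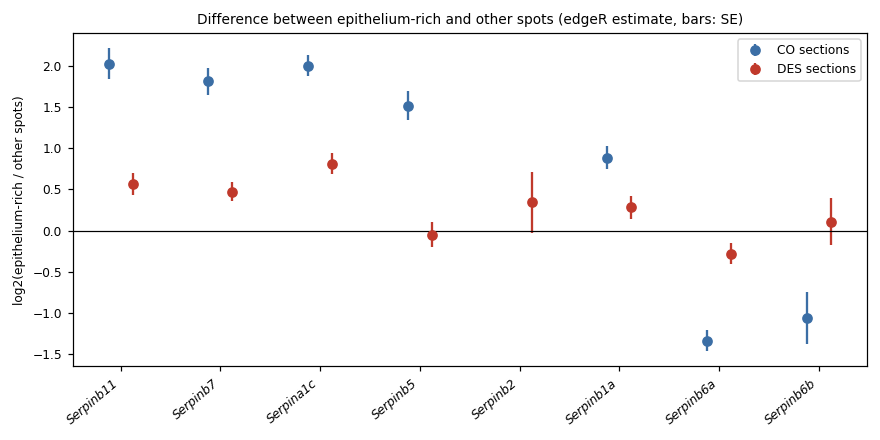
Log2 enrichment of each serpin in epithelium-rich against other spots of the same section, in the CO and the DES sections, with standard errors as bars; Serpinb2 in the CO sections is left out. Serpinb11 goes from 2.03 to 0.56, Serpinb5 from 1.52 to -0.05, and Serpinb6a from -1.33 to -0.28.

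Serpinb2 was gathered in few spot clusters. In DES A, cluster 1 (332 spots) held 122 of its 222 UMIs, 55.0%, at 35.1 CPM, and cluster 8 (61 spots) held 76, or 34.2%, at 101 CPM. Basal markers summed to 16221 CPM in cluster 1. Cluster 8 had neutrophil markers at 2201 CPM and macrophage markers at 7984 CPM, against 279 and 2060 CPM in the whole section. In DES B, cluster 7 (106 spots), with squamous markers at 5795 CPM, held 59 of 103 UMIs, 57.3%. The part of blood cells in the Serpinb2 level of cluster 8 was not tested.

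Serpinb7 and Serpinb11 peaked in the same DES clusters, at 614 and 745 CPM in cluster 1 of DES A and at 883 and 1028 CPM in cluster 7 of DES B. For Serpinb7 in DES A, the interval of cluster 8 (538 CPM) overlapped. The lowest levels of Serpinb7 and Serpinb11 in DES A were 16.8 and 13.1 CPM, both in cluster 6. In DES B they lay apart, at 38.2 CPM in cluster 10 and 10.3 CPM in cluster 9. Serpina1c peaked elsewhere, in cluster 2 of DES A (433 CPM), of DES B (908 CPM) and of CO B (1610 CPM) and in cluster 1 of CO A (260 CPM). Serpinb6a peaked in cluster 6 of CO A at 287 CPM, cluster 3 of CO B at 335 CPM, cluster 7 of DES A at 280 CPM and cluster 10 of DES B at 284 CPM. In DES A and DES B its interval overlapped that of the next cluster, at 204 and 245 CPM.

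Serpinb2 and part of Serpinb5, Serpinb7 and Serpinb11 in CO B lay in 1 small cluster. Cluster 10, of 17 spots or 0.927% of the section, held all 3 Serpinb2 UMIs of CO B (15.3 CPM). It held 24 of 83 Serpinb5 UMIs (28.9%, at 122 CPM), 15 of 78 Serpinb7 UMIs (19.2%, at 76.3 CPM) and 12 of 137 Serpinb11 UMIs (8.76%, at 61.0 CPM). Basal markers summed to 7637 CPM and squamous markers to 6976 CPM there. The cluster was singled out after its values were seen.

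**Figure D5:**
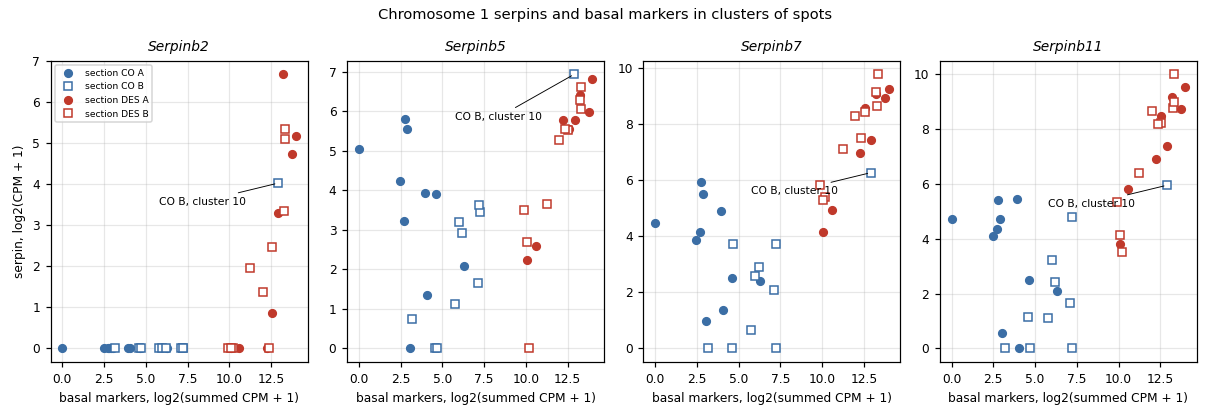
Levels of the 4 serpins of chromosome 1 (vertical axis) against the summed level of basal markers (horizontal axis), both as log2(CPM + 1), with each point 1 spot cluster of at least 15 spots in a CO (blue) or DES (red) section. Cluster 10 of CO B, with basal markers at 7637 CPM, stands among the DES clusters on the horizontal axis, with Serpinb2 at 15.3 and Serpinb5 at 122 CPM.

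The other genes of the protease system were tested in the same fits, where 2.67% of all genes were higher and 2.63% lower in whole sections. Of 16 other serpins tested, Serpinb8 rose by 0.98 ± 0.17 on the log2 scale (adjusted p = 0.0443, edgeR) and none fell. In epithelium-rich spots, where 4.35% of all genes were higher, 12 other serpins were tested and Serpina3g rose by 3.30 ± 0.66 (adjusted p = 0.0463, edgeR). Of 8 leukocyte proteases tested in whole sections, 7 serine proteases and Cpa3, 5 fell and none rose. They were the granzyme gene Gzmb, the mast cell gene Cma1 (-4.19 ± 0.54), which encodes chymase, and the mast cell genes Tpsb2, Tpsab1 and Mcpt4, which had few UMIs in the DES sections. Of 13 epithelial serine proteases, Prss27, the gene for pancreasin, passed as higher on so few UMIs in the CO sections that no fold is given, and Klk1 fell by 3.92. Of 12 cathepsins, Ctss rose by 1.89 ± 0.28, and of 7 Kunitz and Kazal inhibitors Spink8 rose by 3.61 ± 0.51. In non-basal epithelial cells Spink8 stayed under 10 CPM and went the other way, at 3.13 CPM in CO and 1.55 CPM in DES cells. Of 9 genes of the plasminogen system, the targets and partners of Serpinb2, none passed. The median change over all genes was -0.01.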

How the data were processed

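Single cells and tissue sections of uteri from CO and DES mice were measured. The submitters' processing notes name bcl2fastq 2.20.0.422, Cell Ranger 3.0.1 and Space Ranger 1.2.2 (mm10). The authors looked for barcode swapping, removed potential doublets and clustered cells in Seurat. They deposited raw UMI counts per cell and per spot, with cell types and clusters. The deposited counts were summed per cell type, cluster or spot region and divided by the total (CPM), with exact Poisson intervals. Shares of cells used 3000 UMIs per cell. A ratio between cell groups was called at 2 or 0.5 with at least 10 CPM in either group, with no test. Section sums were tested by edgeR 4.0.16 (quasi-likelihood, TMM, limma 3.58.1, R 4.3.3), with each section as a term where regions of it were compared and Benjamini-Hochberg adjustment over all genes; DESeq2 1.42.0 was an alternative. n was 2 sections per treatment. Of the fits, only that of whole sections was tested on simulated data, with 4-fold changes and the same dispersion for all genes. The genes, the lists and the tests were chosen with earlier results of these data known. Named genes were the 8 serpins, some of the nearest 3 genes of each by correlation, and list members, both past a threshold and not. 350 cells listed without counts were left out.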

Additional observations from a re-analysis of the deposited data

Results flagged for a closer look

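For 5 of the 8 serpins, the enrichment in epithelium-rich against other spots differed between the DES and the CO sections by a test of the difference itself (edgeR interaction term, n = 2 sections per treatment). The difference, DES minus CO on the log2 scale, was -1.57 for Serpinb5, -1.47 for Serpinb11, -1.34 for Serpinb7 and -1.19 for Serpina1c, and 1.06 for Serpinb6a. All 6 epithelial markers that chose the spots passed as lower in the same fit, by a median of -0.86. The part of this shift in the serpin values was not tested. The serpins were also chosen with results of these sections known.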

How the results depend on the processing

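With 2 sections per treatment, leaving out 1 section moved most counts of genes past the threshold, and the lone section was then assumed to vary like the others. In whole sections 747 genes passed in edgeR and 1756 in DESeq2, 3 to 2819 with a section left out, and 0 to 5 of the serpins. In epithelium-rich spots 801 passed, 10 to 3032 with a section left out, and 0 to 7 serpins. For the regions of the CO sections 6852 genes passed, 4173 in DESeq2. For those of the DES sections 953 passed, 488 in DESeq2, 1450 with no filter on low counts and 479 with the top 10% of spots. The count was 397 to 2519 with a section left out, and the serpins that passed numbered 1 with the top 10% of spots and 0 to 4 with a section left out. The difference of enrichment had 1890 genes, 51.4% of them higher, 835 in DESeq2 (68.0% higher), 699 with the top 10% of spots and 964 to 3793 with a section left out. Serpinb1a in epithelium-rich spots changed direction without CO A, at 1.21 against -0.14, and ranged from -0.80 to 1.21 with a section left out. It was at 0.17 with the replicate block described below. Other serpins that did not pass also changed direction. Serpina1c went from -0.89 to 0.91 in epithelium-rich spots and from -0.38 to 1.37 in whole sections without CO B, and to 0.10 in whole sections without DES A. Without CO B, Serpinb5 in epithelium-rich spots went from 0.62 to -0.01, and in whole sections Serpinb1a from 0.25 to -0.39 and Serpinb6a from -0.03 to 0.18. Serpinb6b in whole sections went from 0.30 to -0.06 without CO A. The cause of these shifts was not tested. With the section letter as a replicate block, 527 genes passed in whole sections and 771 in epithelium-rich spots, and Serpinb7 passed in whole sections (4.59, adjusted p = 0.0458, edgeR). Over genes, the difference of section A from B in the CO mice correlated with that in the DES mice at -0.0094 in whole sections. In epithelium-rich spots the correlation was 0.0294. With 1 such difference per treatment, handling shared by sections of the same letter was not tested. In non-basal epithelial cells, the DES to CO ratio of each serpin stayed on its side of 1 and of the fold limit in 6 alternatives. It ranged from 0.171 to 0.430 for Serpinb6b, from 0.564 to 0.912 for Serpinb6a and from 4.16 to 7.36 for Serpinb2. The count of 5 serpins higher in basal than in other DES epithelial cells was the same in 7 alternatives, although in integrated cluster 11 alone Serpinb7 was at 168 CPM, below the 189 CPM of other DES epithelial cells. The luminal to gland ratios were not recomputed. The depth of Serpinb2 in the CO samples, 36 UMIs in epithelial cells and 3 in the sections, limits its ratios.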
